A study of Homo sapiens with 48 samples.

Results

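The 43 genes described here encode the proteins that license and fire replication origins and that run the replication fork, and they were chosen by gene symbol, with no measured value in the rule but with earlier results of these data known. All 43 were present in both deposited tables, among 11145 genes with ribosome protected fragments (RPFs) and 11947 genes with total cytoplasmic RNA. By role they are MCM2 to MCM7 (6 genes), the origin recognition complex (6), GINS (4), licensing and firing factors (7), the sliding clamp and its loader (6), polymerases and primase (9), RPA (3) and the enzymes of Okazaki fragment maturation (2). The cells were SW480, an APC-mutant human colorectal cancer line, transduced with a DOX-inducible shRNA: a non-targeting control (shCTRL), shEIF2B1 against eIF2Bα, or shEIF2B4 against eIF2Bδ. Each line was kept for 5 days in 1 µg/ml doxycycline (+DOX) or in its solvent DMSO (-DOX), in 4 replicates from separate weeks, which gave 24 lysates with an RPF library and a total RNA library from each. Each target was addressed with 1 shRNA, and per the study's methods each line was a pool of selected cells. The question put to these genes was whether their mRNA levels and their translation changed when a subunit of eIF2B was depleted.

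Replication origins are licensed when the origin recognition complex, CDC6 and CDT1 load the MCM2 to MCM7 helicase ring onto DNA in the G1 phase. In S phase the kinase CDC7 with its activator DBF4 phosphorylates the ring, CDC45 and GINS join it to form the active helicase, DNA polymerase α and primase start each strand, RFC loads the PCNA clamp for polymerases δ and ε, RPA covers single-stranded DNA, and FEN1 and LIG1 finish Okazaki fragments. Many of these genes are transcribed under E2F factors at the entry into S phase, and they are known as markers of proliferation in colorectal tumors. eIF2B is the exchange factor that reloads eIF2 with GTP, so that eIF2 can bring the initiator tRNA to the ribosome.

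Values below are regularized log2 values as deposited, and a response is the log2 difference between +DOX and -DOX in a knockdown line minus the same difference in shCTRL. A response was called at a limma adjusted p under 0.1, two-sided and adjusted over all genes of the table, and "fell" or "rose" is used only for called responses. Counts at an unadjusted limma p under 0.05 are given without the share of all genes at that cutoff. Shares of all genes beside them are of called genes, so the 2 cannot be compared. Log2 translational efficiency (TE) is the log2 RPF value minus the log2 total RNA value of the same lysate. In its own line EIF2B1 total RNA fell by 0.67 on the log2 scale (adjusted p = 0.0263), and EIF2B4 total RNA fell by 0.49 (adjusted p = 0.0634). In RPFs EIF2B1 fell by 0.53 in its own line (adjusted p = 0.0109), and EIF2B4 was at -0.48 in its own line without passing the test (adjusted p = 0.236). The shCTRL pair of week 1 stood apart, with these 43 genes on average higher on DOX in RPFs where the other shCTRL weeks were lower, and this pair enters every response. Their mean difference on DOX in total RNA went the same way, at 0.10 in week 1 and -0.28, -0.19 and -0.15 in the later weeks. Not every gene went that way, as ORC6 was lower on DOX in week 1 too, in RPFs and in total RNA. Whether the labels of this pair had been exchanged or the week differed was not tested. Without replicate 1 the number of the 43 genes called in RPFs was 18 in place of 27 after shEIF2B1 (8.28% of all genes lower in that fit), 13 in place of 0 after shEIF2B4 (8.17%) and 19 in place of 4 on DOX in shCTRL (31.6%, either direction). Leaving out replicate 1 also removes the week 1 pairs of the knockdown lines. In uninduced shEIF2B4 cells the mean RPF value of the 43 genes was 7.76 in week 1 and 8.39, 8.41 and 8.41 in the later weeks. Which pair moved the counts was not tested. Of 12 markers of colorectal epithelium 8 were in the total RNA table, EPCAM, CDH1, KRT8, KRT18, KRT19, CDX2, AXIN2 and ASCL2, and of 9 markers of leukocytes, endothelium and fibroblasts 0 were. The epithelial markers KRT20, VIL1, CDX1 and LGR5 were absent from it. Mean total RNA values of the 8 ran from percentile 6.32 to percentile 99.3 of all genes. The files hold no read counts, so depth per library is unknown, and in bulk lysates fewer cells in S phase cannot be told apart from less RNA or fewer footprints per cell.

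One sequence property of these genes recurs in the results, the share of codons that end in G or C (GC3). Over the whole coding sequence GC3 ran from 29.4% in DBF4 to 85% in POLD1 among the 43 genes, with a median of 50.6%, against a median of 59.7% over 10847 genes of the RPF table with an annotated coding sequence. To show both ends of that range, the first 90 bases of the coding sequence are printed for DBF4 (chromosome 7, 87876216 to 87909541, plus strand), WDHD1 (chromosome 14, 54938950 to 55027105, minus strand), CDT1 (chromosome 16, 88803213 to 88809258, plus strand) and POLD1 (chromosome 19, 50384204 to 50418016, plus strand), from GENCODE v29 on GRCh38, with capitals where the third base of a codon is G or C.
DBF4: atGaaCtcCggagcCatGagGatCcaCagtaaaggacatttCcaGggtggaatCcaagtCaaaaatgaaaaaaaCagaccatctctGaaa
WDHD1: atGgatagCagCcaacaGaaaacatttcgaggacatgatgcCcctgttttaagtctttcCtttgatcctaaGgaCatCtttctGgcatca
CDT1: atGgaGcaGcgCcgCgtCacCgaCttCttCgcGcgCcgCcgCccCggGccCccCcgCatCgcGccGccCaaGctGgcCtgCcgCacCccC
POLD1: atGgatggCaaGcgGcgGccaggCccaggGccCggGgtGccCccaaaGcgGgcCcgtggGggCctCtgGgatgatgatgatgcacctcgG

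Of the 30 codons shown, 14 ended in G or C in DBF4, 10 in WDHD1, 30 in CDT1 and 19 in POLD1, and the whole coding sequences held 29.4%, 31.2%, 82.8% and 85%. DBF4 and WDHD1 had the lowest GC3 of the 43 genes, and CDT1 and POLD1 the highest.

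Letters that E2F factors are known to bind were common in the promoters of these genes. In RefSeq promoters on GRCh38.p14, from 250 bases before to 50 bases after the gene start, 37 of the 43 genes had an entry. Of those, 18 (48.6%) held TTTGGCGC, TTTCGCGC, TTTCCCGC or TTTGCCGC on either strand, against 3.99% of 27305 gene symbols with an entry of that length. A symbol was counted if any of its entries held the letters, and the 27305 symbols were not limited to genes measured here. CCAAT on either strand was in 20 of the 37 (54.1%), against 39.7% of all those symbols. Among the MCM genes MCM2, MCM3, MCM6 and MCM7 held the E2F letters, and among clamp and loader genes PCNA and RFC3 did. The windows of 30 bases around the first match in these MCM genes and PCNA, 5' to 3' on the gene's strand with the E2F letters in capitals, are shown because MCM2 and PCNA had the largest called falls in total RNA, at chr3:127598402-127598431 (plus strand, MCM2), chr6:52284898-52284927 (minus strand, MCM3), chr2:135876577-135876606 (minus strand, MCM6), chr7:100101566-100101595 (minus strand, MCM7) and chr20:5126663-5126692 (minus strand, PCNA).
MCM2: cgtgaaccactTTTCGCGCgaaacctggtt
MCM3: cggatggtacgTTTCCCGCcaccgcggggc
MCM6: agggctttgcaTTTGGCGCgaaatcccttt
MCM7: cagctcggaccGCGGGAAAcccggcgcctg
PCNA: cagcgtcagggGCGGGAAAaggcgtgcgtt

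The letters lay in the reading direction of the gene in MCM2, MCM3 and MCM6 and in the opposite direction in MCM7 and PCNA, and in MCM2 and MCM6 they overlapped a match on the other strand. Their first base was at position 2 in MCM2, -174 in MCM3, -152 in MCM6, -187 in MCM7 and -59 in PCNA, counted from 0 at the gene start. In the other roles GINS1, GINS2, GINS3, CDC6, CDT1, CDC7, ORC3, POLA1, POLA2, POLE, POLE2 and LIG1 held them, and none of the RPA genes was found to. Any of the genes not named as holding the letters either lacked them or had no promoter entry. A match is a description of these letters and not a measured binding site.

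In uninduced shCTRL cells the 43 genes spanned a wide range of footprint density. Per kilobase of coding sequence, PCNA, the sliding clamp, had the highest log2 RPF level, 11.64 ± 0.14 (SD, n = 4), followed by the RPA3 subunit of the single-strand binding complex at 11.53 ± 0.56, MCM7 at 10.74 ± 0.20 and GINS2 at 10.70 ± 0.11. PCNA and RPA3 did not differ beyond their spread, nor did MCM7 and GINS2. The lowest levels were those of WDHD1, which ties polymerase α to the helicase, at 4.02 ± 0.41, and of RFC1, the large subunit of the clamp loader, at 4.60 ± 0.34. The median of the 43 genes was 7.39 per kilobase, against 6.56 over 10848 genes. Subunits of one complex were not at one level: the MCM subunits ran from 7.39 in MCM2 to 10.74 in MCM7 (10.2-fold), the ORC subunits from 4.97 in ORC1 to 8.95 in ORC6, the GINS subunits from 7.01 in GINS4 to 10.70 in GINS2, and the clamp and loader genes spanned 131-fold. In total RNA per kilobase of transcript RPA3 was highest at 12.06 ± 0.21 and LIG1, the ligase that joins Okazaki fragments, lowest at 4.75 ± 0.08. Of the 43 genes DBF4 had the largest excess of total RNA over RPF level, with a total RNA level of 10.52 ± 0.09 per kilobase of its transcript and an RPF level of 7.14 ± 0.41 per kilobase of its coding sequence.

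**Figure D1:**
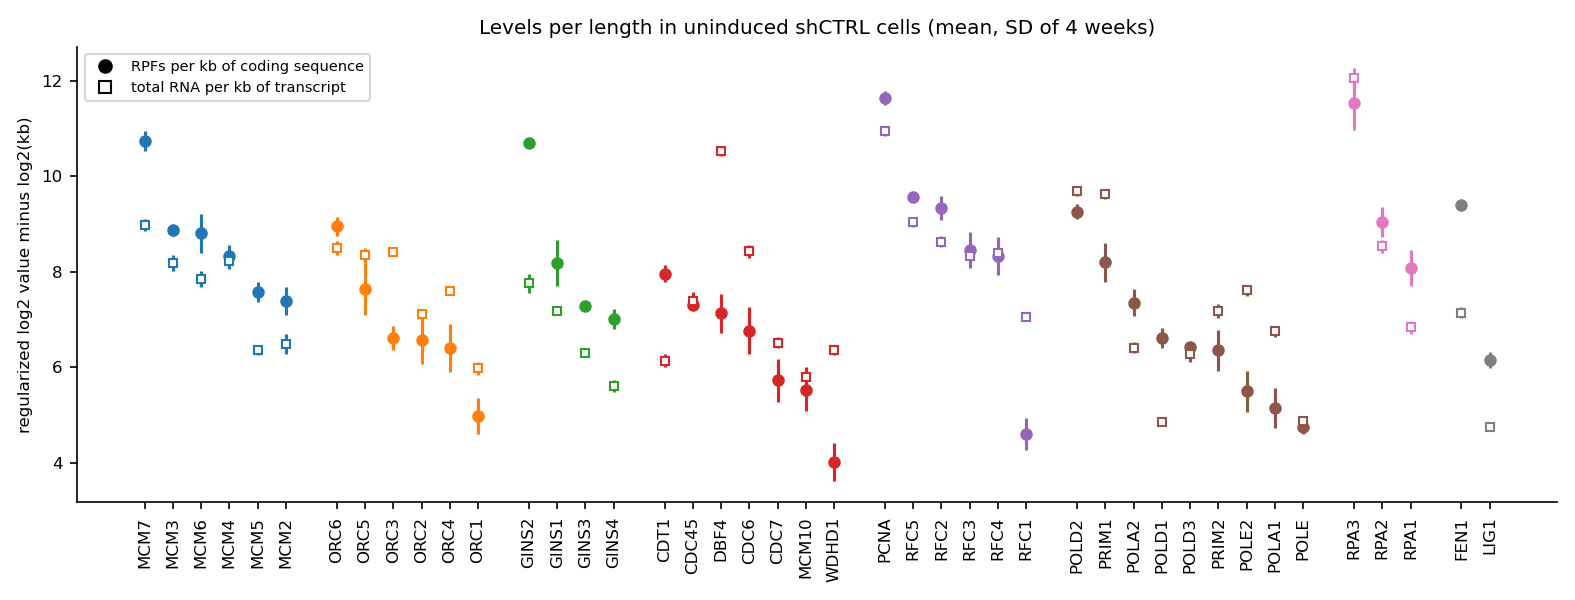
Level per length of each of the 43 genes in uninduced shCTRL cells, as the regularized log2 value minus log2 of the length in kilobases (y axis), grouped by role and ordered by RPF level within each role. Filled circles are RPFs per kilobase of coding sequence and open squares are total RNA per kilobase of transcript, with bars for the SD of 4 weeks; PCNA and RPA3 are at the top of the RPF levels and WDHD1 is at the bottom.

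After induction of shEIF2B1, 27 of the 43 genes fell in RPFs and 0 rose. Over all 11145 genes 15.3% fell, and the median response was -0.50 for the 43 genes and -0.01 for all genes. Of all genes with a known GC3, 1260 of the 7064 at 50% or over and 56 of the 3783 below rose. 38 of the 43 responses were below 0. The counts of called falls by role were 5 of 6 for ORC (median response -0.72), 3 of 6 for MCM2 to MCM7 (-0.57), 3 of 3 for RPA (-0.57), 4 of 7 for licensing and firing factors (-0.54), 5 of 6 for clamp and loader (-0.46), 1 of 2 for Okazaki fragment maturation (-0.37), 2 of 4 for GINS (-0.31) and 4 of 9 for polymerases and primase (-0.26). Differences between the roles were not tested.

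**Figure D2:**
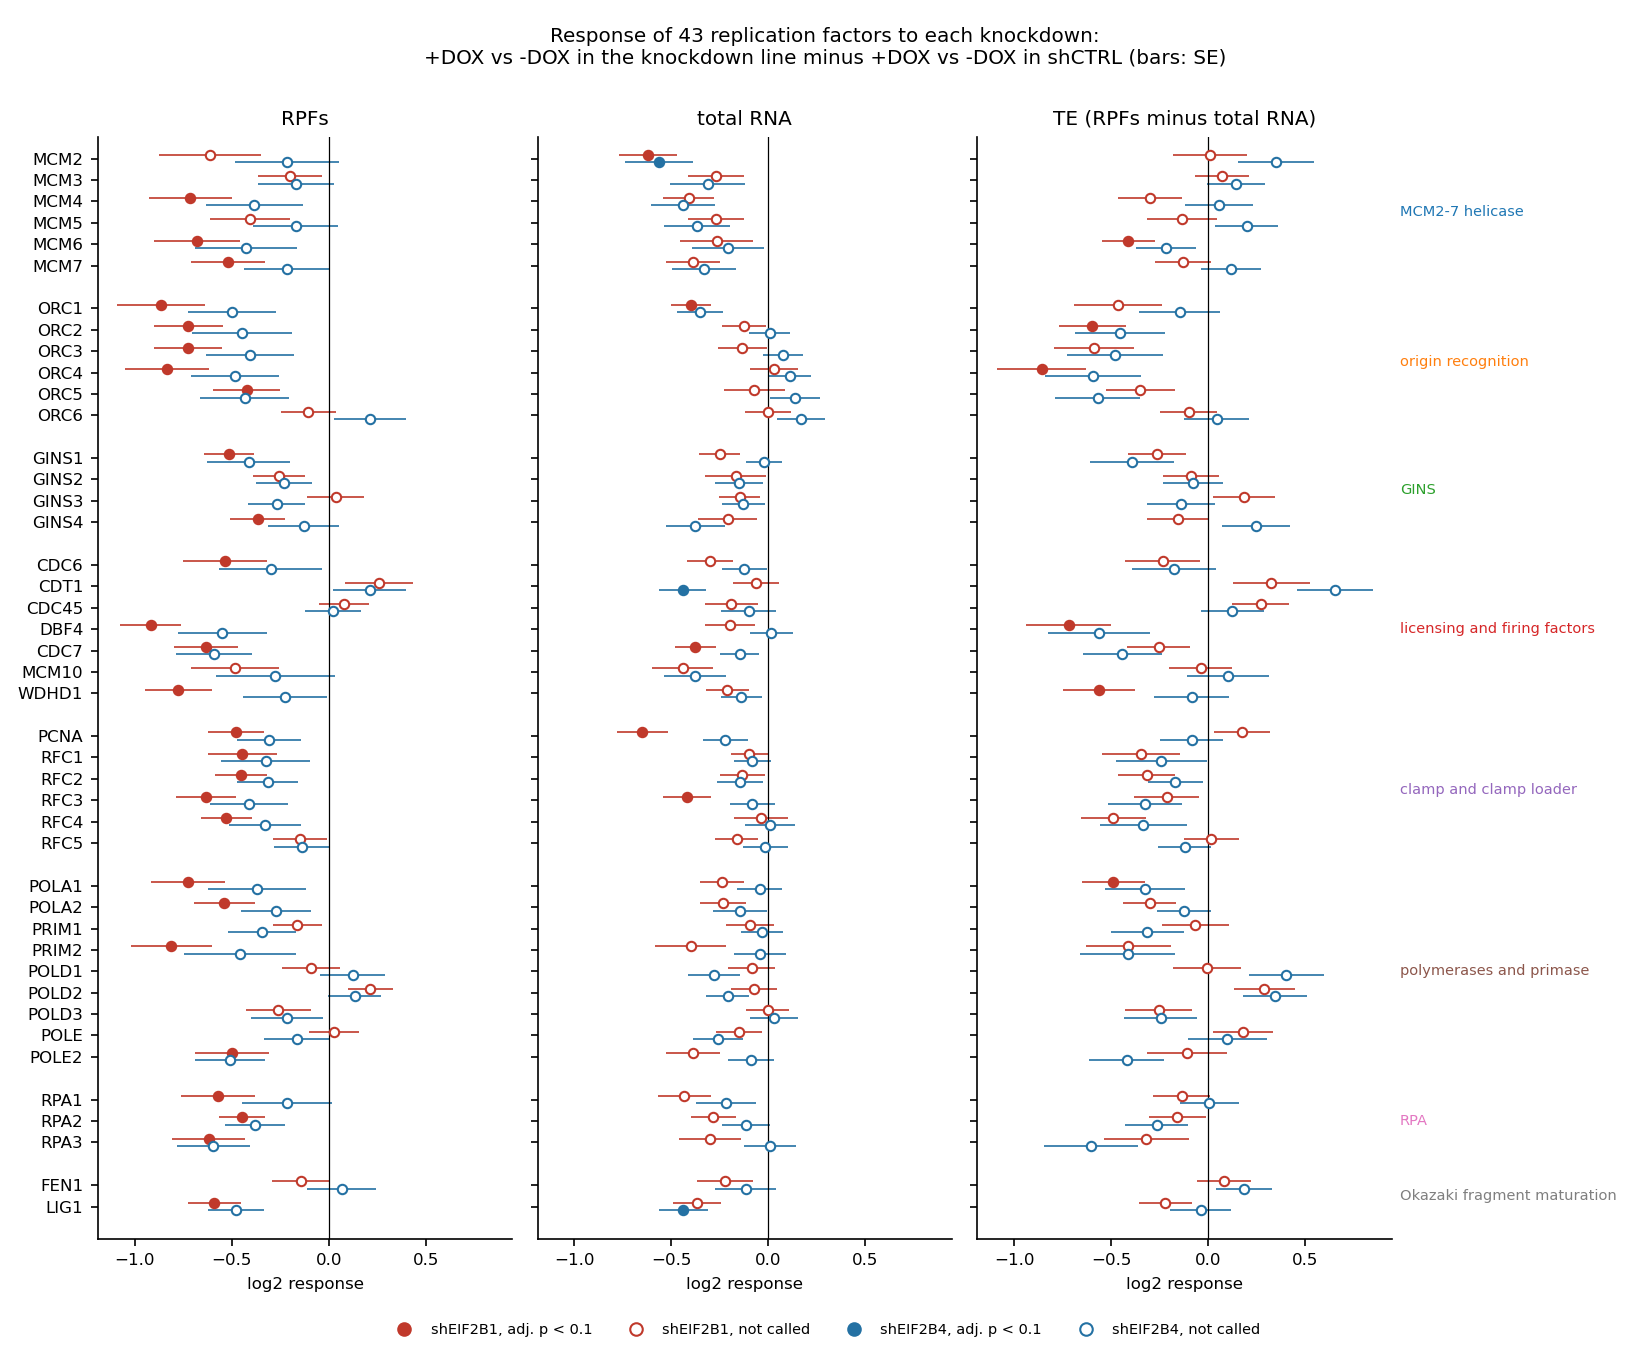
Response of each of the 43 genes to shEIF2B1 (red) and to shEIF2B4 (blue) in RPFs, total RNA and TE, as a log2 difference (x axis) with bars for the SE of the limma fit and filled circles for adjusted p under 0.1. In RPFs 27 red circles are filled, all left of 0, and 0 blue circles are filled.

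The MCM genes encode the ring of the replicative helicase, and MCM4, MCM6 and MCM7 fell. The values of each gene are given for weeks 1 to 4 in that order. MCM4 RPFs in shEIF2B1 cells were 9.88, 10.42, 9.93 and 10.34 without DOX and 9.41, 9.16, 9.33 and 9.16 with DOX. MCM4 in shCTRL cells was 9.39, 9.71, 9.79 and 9.93 without DOX and 9.84, 9.11, 9.34 and 9.86 with DOX. All 4 induced shEIF2B1 lysates lay under all 4 uninduced ones, the shCTRL groups overlapped, and the response was -0.71 ± 0.21 (SE, limma adjusted p = 0.0267). MCM6 RPFs in shEIF2B1 cells were 10.16, 10.92, 10.19 and 10.71 without DOX and 9.54, 9.74, 9.77 and 9.76 with DOX. MCM6 in shCTRL cells was 9.68, 10.37, 9.85 and 10.53 without DOX and 10.15, 9.59, 9.75 and 10.49 with DOX. The shEIF2B1 groups again did not overlap and the shCTRL groups did, with a response of -0.68 ± 0.22 (SE, adjusted p = 0.0398). MCM7 RPFs in shEIF2B1 cells were 11.88, 12.02, 11.85 and 11.98 without DOX and 11.35, 11.20, 11.30 and 10.96 with DOX. MCM7 in shCTRL cells was 11.59, 11.87, 11.86 and 12.08 without DOX and 11.99, 11.23, 11.52 and 11.80 with DOX. For MCM7 the response was -0.52 ± 0.19 (SE, adjusted p = 0.0644), with the same separation in shEIF2B1 and overlap in shCTRL. The MCM4 call was lost without replicate 4 (adjusted p = 0.16), the MCM6 call without replicate 1 (0.158) or 4 (0.155), and the MCM7 call without replicate 1 (0.21), 3 (0.104) or 4 (0.214). Over all alternatives the adjusted p of these 3 calls ran from 1.44e-06 to 0.621. The lowest value was that of MCM4 without the shCTRL correction, which tests the difference within shEIF2B1 and not the response.

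MCM2, MCM3 and MCM5 did not pass the test. MCM2 RPFs in shEIF2B1 cells were 8.70, 9.16, 8.92 and 9.15 without DOX and 8.29, 7.96, 8.32 and 7.80 with DOX. MCM2 in shCTRL cells was 8.51, 8.72, 8.90 and 9.20 without DOX and 9.05, 7.87, 8.42 and 8.90 with DOX. The shEIF2B1 groups did not overlap, but the shCTRL groups did, with week 1 higher on DOX and the other weeks lower, and the response was -0.61 ± 0.26 (SE, adjusted p = 0.11); without replicate 2 the adjusted p was 0.064, and over all alternatives it ran from 3.34e-06 to 0.621. MCM3 RPFs in shEIF2B1 cells were 10.21, 10.43, 10.10 and 10.37 without DOX and 9.82, 9.70, 9.89 and 9.68 with DOX. MCM3 in shCTRL cells was 10.09, 10.29, 10.19 and 10.35 without DOX and 10.25, 9.60, 9.78 and 10.07 with DOX. MCM3 had the smallest response of the ring, -0.20 ± 0.16 (SE, adjusted p = 0.414), with shCTRL values lower on DOX in 3 of 4 weeks as well. MCM5 RPFs in shEIF2B1 cells were 8.53, 8.69, 8.55 and 8.72 without DOX and 8.27, 7.81, 8.08 and 7.78 with DOX. MCM5 in shCTRL cells was 8.37, 8.63, 8.60 and 8.88 without DOX and 8.84, 7.91, 8.22 and 8.58 with DOX. Its response was -0.41 ± 0.21 (SE, adjusted p = 0.175), with separate groups in shEIF2B1 and overlapping groups in shCTRL.

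**Figure D3:**
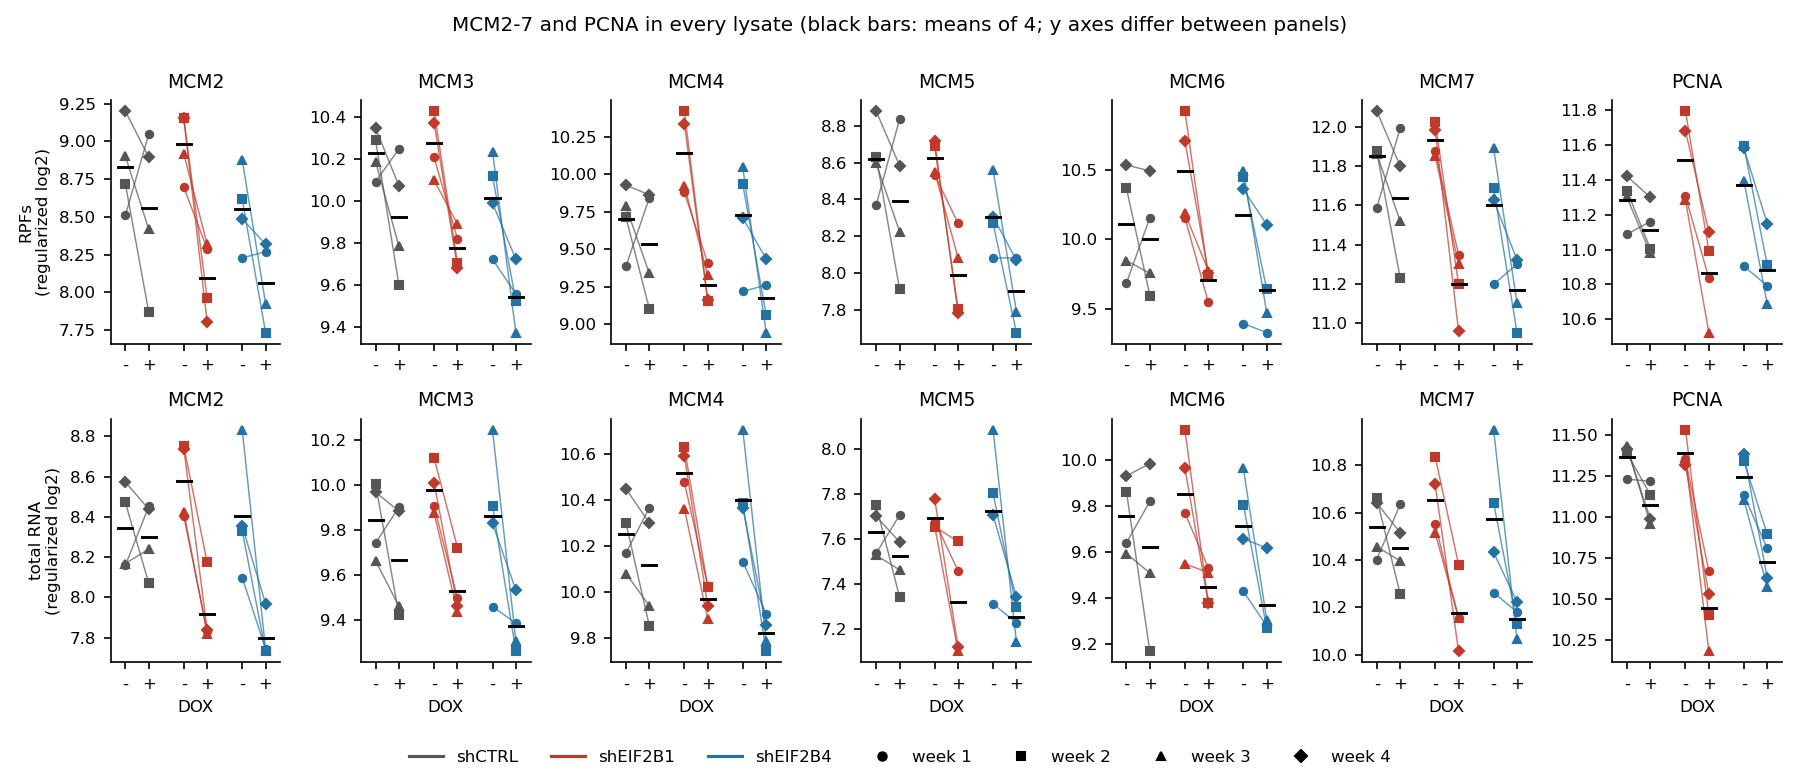
MCM2 to MCM7 and PCNA in every lysate, with RPFs in the upper and total RNA in the lower panels, as regularized log2 values (y axes, which differ between panels) without (-) and with (+) DOX. Symbols mark the 4 weeks, lines join the lysates of 1 week and line, and black bars are means of 4; in shEIF2B1 (red) all induced values lie under all uninduced values in every panel, while shCTRL (grey) overlaps in every panel but PCNA total RNA.

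Origin recognition genes, which mark the sites where helicases are loaded, fell in 5 of 6 cases, with ORC6 as the exception. ORC1 RPFs in shEIF2B1 cells were 6.25, 6.72, 6.76 and 6.91 without DOX and 5.57, 5.55, 5.76 and 5.51 with DOX. ORC1 in shCTRL cells was 5.82, 6.34, 6.51 and 6.69 without DOX and 6.43, 5.65, 6.10 and 6.40 with DOX. ORC1, the ATPase of the complex, had separate groups in shEIF2B1, overlapping groups in shCTRL and the lowest response of the 6, -0.87 ± 0.23 (SE, adjusted p = 0.0135). ORC4 RPFs in shEIF2B1 cells were 6.68, 8.21, 7.06 and 8.18 without DOX and 6.37, 7.001, 6.39 and 7.75 with DOX. ORC4 in shCTRL cells was 6.34, 7.12, 6.39 and 7.33 without DOX and 6.72, 6.82, 6.78 and 7.58 with DOX. For ORC4 the groups overlapped in both lines, with uninduced weeks 2 and 4 above weeks 1 and 3, but every shEIF2B1 week was lower on DOX, and the response was -0.83 ± 0.22 (SE, adjusted p = 0.0126). ORC2 RPFs in shEIF2B1 cells were 7.43, 8.61, 7.50 and 8.50 without DOX and 6.93, 7.82, 7.06 and 8.08 with DOX. ORC2 in shCTRL cells was 6.90, 7.77, 6.94 and 7.81 without DOX and 7.41, 7.49, 7.27 and 8.001 with DOX. ORC2 was lower on DOX in 4 of 4 shEIF2B1 weeks and 1 of 4 shCTRL weeks, with a response of -0.72 ± 0.18 (SE, adjusted p = 0.0101). ORC3 (-0.73, adjusted p = 0.00945) and ORC5 (-0.42, 0.0914) fell as well. ORC6 RPFs in shEIF2B1 cells were 8.44, 8.70, 8.55 and 8.96 without DOX and 8.002, 8.02, 7.92 and 8.49 with DOX. ORC6 in shCTRL cells was 8.39, 8.37, 8.68 and 8.76 without DOX and 8.11, 7.78, 8.15 and 8.35 with DOX. ORC6, the least conserved subunit, was lower on DOX in all 4 weeks of both lines, so its response was -0.10 ± 0.14 (SE, adjusted p = 0.632). The ORC1 to ORC4 calls were kept without any single replicate, and the ORC5 call was lost without replicate 1 (0.321), 3 (0.165) or 4 (0.265), with adjusted p over all alternatives and the 5 calls from 2.44e-07 to 0.851. With induced lines only the ORC5 difference turned to 0.17 (adjusted p = 0.427).

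GINS joins CDC45 and the MCM ring in the active helicase, and GINS1 and GINS4 fell while GINS2 and GINS3 did not pass the test. GINS1 RPFs in shEIF2B1 cells were 7.63, 8.31, 7.34 and 8.06 without DOX and 6.99, 7.60, 6.95 and 7.58 with DOX. GINS1 in shCTRL cells was 7.09, 7.81, 6.94 and 7.86 without DOX and 7.22, 7.65, 7.04 and 7.64 with DOX. GINS1 was lower on DOX in every shEIF2B1 week and in 2 of 4 shCTRL weeks, the groups overlapped in both lines, and the response was -0.51 ± 0.13 (SE, adjusted p = 0.0115), called without any single replicate. GINS3 RPFs in shEIF2B1 cells were 6.51, 6.54, 6.69 and 6.38 without DOX and 6.97, 6.78, 6.67 and 6.32 with DOX. GINS3 in shCTRL cells was 6.63, 6.72, 6.71 and 6.55 without DOX and 6.87, 6.67, 6.96 and 6.59 with DOX. For GINS3 the values overlapped in both lines and the response was 0.04 ± 0.15 (SE, adjusted p = 0.885). GINS2 had a response of -0.26 ± 0.13 (SE, adjusted p = 0.181). GINS2 RPFs in shEIF2B1 cells were 9.94, 9.54, 9.96 and 9.83 without DOX and 9.53, 8.97, 9.16 and 9.29 with DOX. All induced GINS2 values of shEIF2B1 were under the uninduced ones. The GINS4 response was -0.37 ± 0.14 (SE, adjusted p = 0.0777) and was lost without replicate 1 (0.202), 3 (0.147) or 4 (0.283). Adjusted p of the GINS1 and GINS4 calls ran from 0.000188 to 0.945 over all alternatives.

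Among licensing and firing factors the lowest response of all 43 genes was that of DBF4, the activator of the CDC7 kinase. DBF4 RPFs in shEIF2B1 cells were 8.29, 9.37, 8.35 and 9.36 without DOX and 7.17, 8.16, 7.39 and 8.64 with DOX. DBF4 in shCTRL cells was 7.81, 8.38, 7.81 and 8.61 without DOX and 7.70, 8.15, 7.78 and 8.65 with DOX. DBF4 was lower on DOX in 4 of 4 shEIF2B1 weeks, with overlap of the groups between weeks, and the response was -0.92 ± 0.16 (SE, adjusted p = 0.000938). WDHD1 RPFs in shEIF2B1 cells were 5.58, 6.67, 5.91 and 6.61 without DOX and 5.25, 5.74, 5.28 and 5.90 with DOX. WDHD1 in shCTRL cells was 5.35, 5.72, 5.23 and 6.13 without DOX and 5.47, 5.69, 5.63 and 6.13 with DOX. WDHD1 was lower on DOX in 4 of 4 shEIF2B1 weeks and 1 of 4 shCTRL weeks, with a response of -0.78 ± 0.17 (SE, adjusted p = 0.00581). CDC7 RPFs in shEIF2B1 cells were 6.39, 7.39, 6.69 and 7.20 without DOX and 6.12, 6.35, 5.95 and 6.59 with DOX. CDC7 in shCTRL cells was 6.06, 6.80, 6.20 and 6.99 without DOX and 6.28, 6.51, 6.18 and 6.95 with DOX. The response of CDC7, the kinase that fires licensed origins, was -0.63 ± 0.17 (SE, adjusted p = 0.0131), and the calls of DBF4, WDHD1 and CDC7 were kept without any single replicate. CDC6, the ATPase that helps load the ring, fell (-0.54 ± 0.22 SE, adjusted p = 0.0865), a call lost without replicate 1 (0.185), 3 (0.144) or 4 (0.25). CDT1 went the other way without passing the test. CDT1 RPFs in shEIF2B1 cells were 8.46, 8.21, 8.44 and 8.03 without DOX and 8.63, 7.82, 8.33 and 7.62 with DOX. CDT1 in shCTRL cells was 8.76, 8.61, 8.88 and 8.45 without DOX and 8.86, 7.80, 8.20 and 8.07 with DOX. CDT1, the partner that brings the ring to origins, was lower on DOX in 3 of 4 weeks of each line and by more in shCTRL, so its response was 0.26 ± 0.18 (SE, adjusted p = 0.309), the highest of the 43 genes. MCM10 (-0.48, adjusted p = 0.139) and CDC45 (0.08, 0.703) did not pass the test. For the 4 calls the adjusted p ran from 4.11e-08 to 0.63 over all alternatives.

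PCNA and the RFC clamp loader fell except for RFC5. PCNA RPFs in shEIF2B1 cells were 11.31, 11.79, 11.28 and 11.68 without DOX and 10.84, 10.99, 10.52 and 11.10 with DOX. PCNA in shCTRL cells was 11.09, 11.34, 11.30 and 11.42 without DOX and 11.16, 11.003, 10.98 and 11.30 with DOX. PCNA groups were separate in shEIF2B1 and overlapped in shCTRL, and the response was -0.48 ± 0.14 (SE, adjusted p = 0.027); the call was lost without replicate 4 (adjusted p = 0.116). RFC3 RPFs in shEIF2B1 cells were 8.81, 9.24, 8.68 and 9.16 without DOX and 8.05, 8.40, 8.12 and 8.57 with DOX. RFC3 in shCTRL cells was 8.17, 8.84, 8.29 and 8.90 without DOX and 8.42, 8.28, 8.42 and 8.87 with DOX. RFC3, a small subunit of the loader, had the lowest response of this role, -0.63 ± 0.15 (SE, adjusted p = 0.00929), with separate groups in shEIF2B1. RFC4 RPFs in shEIF2B1 cells were 8.56, 9.26, 8.66 and 9.23 without DOX and 7.77, 8.66, 7.91 and 8.96 with DOX. RFC4 in shCTRL cells was 8.08, 8.77, 8.15 and 8.84 without DOX and 7.95, 8.59, 8.18 and 8.81 with DOX. The RFC4 response was -0.53 ± 0.13 (SE, adjusted p = 0.00967), with lower values on DOX in 4 of 4 shEIF2B1 weeks and 3 of 4 shCTRL weeks. RFC5 RPFs in shEIF2B1 cells were 9.51, 9.48, 9.51 and 9.53 without DOX and 9.27, 9.05, 8.95 and 8.97 with DOX. RFC5 in shCTRL cells was 9.59, 9.57, 9.59 and 9.66 without DOX and 9.59, 8.95, 9.28 and 9.40 with DOX. RFC5 was lower on DOX in every week of both lines, and its response was -0.15 ± 0.14 (SE, adjusted p = 0.476). RFC1 (-0.45, adjusted p = 0.0856) and RFC2 (-0.45, 0.0261) fell, the former lost without replicate 2 (0.342) or 4 (0.296) and the latter without replicate 1 (0.144). Over all alternatives the adjusted p of the 5 calls ran from 5.53e-06 to 0.843.

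Among polymerases and primase the calls were POLA1, POLA2, PRIM2 and POLE2, and none of the 3 polymerase δ genes was called. PRIM2 RPFs in shEIF2B1 cells were 7.01, 7.998, 7.13 and 7.90 without DOX and 6.07, 6.88, 6.55 and 7.14 with DOX. PRIM2 in shCTRL cells was 6.45, 7.10, 6.85 and 7.48 without DOX and 6.98, 6.66, 6.75 and 7.36 with DOX. PRIM2, the large primase subunit, had the lowest response of this role, -0.81 ± 0.21 (SE, adjusted p = 0.012), with weeks 2 and 4 far above weeks 1 and 3 in uninduced shEIF2B1 cells. POLA1 RPFs in shEIF2B1 cells were 7.42, 8.10, 7.50 and 8.03 without DOX and 6.80, 7.03, 7.09 and 7.41 with DOX. POLA1 in shCTRL cells was 6.89, 7.45, 6.99 and 7.79 without DOX and 7.34, 6.97, 7.11 and 7.89 with DOX. POLA1, the catalytic subunit of polymerase α, had separate groups in shEIF2B1, overlapping groups in shCTRL and a response of -0.73 ± 0.19 (SE, adjusted p = 0.0137). POLD2 RPFs in shEIF2B1 cells were 9.80, 9.56, 9.85 and 9.51 without DOX and 9.999, 9.64, 9.997 and 9.61 with DOX. POLD2 in shCTRL cells was 9.94, 9.86, 9.99 and 9.64 without DOX and 10.09, 9.71, 9.82 and 9.48 with DOX. POLD2, an accessory subunit of polymerase δ, was higher on DOX in 4 of 4 shEIF2B1 weeks, but its response of 0.22 ± 0.12 (SE, adjusted p = 0.2) did not pass the test. POLA2 (-0.54, adjusted p = 0.0232) lost its call without replicate 1 (0.108) or 4 (0.119), and POLE2 (-0.50, 0.0716) without replicate 2 (0.126), 3 (0.281) or 4 (0.134). Of the rest, POLD1 had -0.09, POLD3 -0.26, POLE 0.03 and PRIM1 -0.16, with adjusted p from 0.283 to 0.905. For the 4 called genes the adjusted p ran from 2.16e-06 to 0.756 over all alternatives.

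All 3 RPA genes, which protect single-stranded DNA at the fork, fell. RPA3 RPFs in shEIF2B1 cells were 9.61, 9.87, 9.89 and 10.16 without DOX and 8.80, 9.96, 9.04 and 10.08 with DOX. RPA3 in shCTRL cells was 8.86, 9.74, 9.28 and 10.16 without DOX and 8.93, 10.02, 9.77 and 10.14 with DOX. RPA3 was lower on DOX in 3 of 4 shEIF2B1 weeks and 1 of 4 shCTRL weeks, and the response was -0.62 ± 0.19 (SE, adjusted p = 0.0285), lost without replicate 1 (0.11) or 3 (0.236). RPA2 RPFs in shEIF2B1 cells were 8.75, 9.26, 8.79 and 9.37 without DOX and 8.36, 8.79, 8.33 and 8.75 with DOX. RPA2 in shCTRL cells was 8.54, 8.91, 8.43 and 9.08 without DOX and 8.52, 8.71, 8.47 and 9.10 with DOX. RPA2 had a response of -0.45 ± 0.12 (SE, adjusted p = 0.0146), lost without replicate 4 (0.122), and RPA1 had -0.57 (0.0425), lost without replicate 1 (0.166) or 4 (0.134). Of the enzymes of Okazaki fragment maturation LIG1 fell and the flap nuclease FEN1 did not pass the test. LIG1 RPFs in shEIF2B1 cells were 8.06, 7.78, 7.94 and 7.66 without DOX and 7.72, 7.24, 7.41 and 6.94 with DOX. LIG1 in shCTRL cells was 7.81, 7.50, 7.71 and 7.44 without DOX and 8.12, 7.35, 7.70 and 7.54 with DOX. LIG1 was lower on DOX in every shEIF2B1 week and 2 of 4 shCTRL weeks, with a response of -0.59 ± 0.14 (SE, adjusted p = 0.00736) that was called without any single replicate. FEN1 RPFs in shEIF2B1 cells were 9.46, 9.55, 9.42 and 9.45 without DOX and 9.17, 8.90, 8.89 and 8.80 with DOX. FEN1 in shCTRL cells was 9.52, 9.64, 9.50 and 9.65 without DOX and 9.51, 9.001, 8.94 and 9.32 with DOX. FEN1 was lower on DOX in every week of both lines, and the response was -0.14 ± 0.14 (SE, adjusted p = 0.51). Adjusted p of the RPA and LIG1 calls ran from 0.0003 to 0.639 over all alternatives.

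The count of 27 was 0 in the fit without the replicate block, where 12 genes had an unadjusted p under 0.05, and it lay between 15 and 27 when 1 replicate was left out, with 18 without replicate 1 and the fewest, 15, without replicate 4 (7.59% of all genes lower in that fit); 13 of the 27 calls were kept without any single replicate. Cell cycle genes outside the list moved in the same libraries: of 15 mitotic markers 12 fell in RPFs (median response -0.81, 15.3% of all genes), 9 in total RNA (-0.50, 1.13%) and 3 in TE (-0.30, 4.13%), and their part in the result was not tested.

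The lines already differed before induction. In RPFs of uninduced cells 29 of the 43 genes were higher in shEIF2B1 than in shCTRL, where 29% of all genes were, and 2 were lower, CDT1 and POLD2, where 25.1% of all genes were. The median difference was 0.32 for the 43 genes and 0.00237 for all genes. ORC4 (0.74 ± 0.11 SE, adjusted p = 4.65e-05), DBF4 (0.69 ± 0.09 SE, adjusted p = 1.74e-05) and ORC2 (0.65 ± 0.09 SE, adjusted p = 2.19e-05) differed most. CDT1 differed by -0.39 ± 0.08 (SE, adjusted p = 0.000545) and POLD2 by -0.18 ± 0.07 (SE, adjusted p = 0.0535). The higher genes were MCM4 and MCM6, ORC1 to ORC5, GINS1 and GINS4, CDC6, DBF4, CDC7, MCM10 and WDHD1, PCNA and RFC1 to RFC4, POLA1, POLA2, PRIM1, PRIM2, POLD3 and POLE2, all 3 RPA genes and LIG1. Leaving out 1 replicate gave 26 to 31 called genes, and the fit without the replicate block gave 0. In total RNA 2 genes were higher, MCM2 (0.24 ± 0.06 SE, adjusted p = 0.072) and MCM4 (0.26 ± 0.05 SE, adjusted p = 0.0287), against 0.594% of all genes, and 0 were lower, against 0.804%; 10 had an unadjusted p under 0.05. The MCM2 call was lost without any 1 replicate (adjusted p from 0.102 to 0.285) and the MCM4 call without replicate 1 (0.156) or 2 (0.153). The uninduced cells enter the response as its reference, so these differences and the responses share libraries.

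The median over all genes was -0.13 in RPFs of uninduced shEIF2B4 against shCTRL, and that of the 43 genes was 0.04. ORC4 was higher (0.48 ± 0.16 SE, adjusted p = 0.0887), and CDT1 (-0.52 ± 0.13 SE, adjusted p = 0.0606), FEN1 (-0.40 ± 0.12 SE, adjusted p = 0.0774) and POLD1 (-0.38 ± 0.13 SE, adjusted p = 0.0897) were lower, against 1.55% of all genes higher and 12.4% lower. When library medians were set equal, 0 of these 4 were called, without replicate 1 the count was 20, 13 higher and 7 lower (47.6% of all genes in either direction), and without any other replicate it was 0 (adjusted p of the 4 from 0.101 to 0.355). In total RNA 0 were called by limma, with 5 at an unadjusted p under 0.05, against 0.728% of all genes higher and 1.59% lower.

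Measured within a line, without the shCTRL correction, 38 of the 43 genes were lower in RPFs on DOX in shEIF2B1 (26.7% of all genes) and 29 in shEIF2B4 (12%). Set against induced shCTRL cells, which leaves out the uninduced cells, 7 were lower in shEIF2B1: MCM2, MCM5, MCM7, ORC1, GINS2, POLA2 and LIG1, with a median difference of -0.16 and 4.81% of all genes lower. The same comparison of shEIF2B4, where the median over all genes was -0.13, gave 26 lower genes, among them all 6 MCM genes, and ORC6 higher, with a median of -0.27 and 25.3% of all genes lower. This comparison of induced lines was chosen after the data had been seen. The means over the 43 genes by lysate show the same sizes: RPFs of shEIF2B1 were 8.25, 8.72, 8.31 and 8.68 without and 7.87, 8.000, 7.85 and 8.08 with DOX in weeks 1 to 4. In shCTRL the means were 7.98, 8.34, 8.11 and 8.49 without and 8.18, 7.94, 7.99 and 8.39 with DOX, so week 1 of shCTRL was higher on DOX and the other weeks were lower. Means of shEIF2B4 were 7.76, 8.39, 8.41 and 8.41 without and 7.72, 7.81, 7.78 and 8.14 with DOX, lower on DOX in every week but by the least in week 1.

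**Figure D4:**
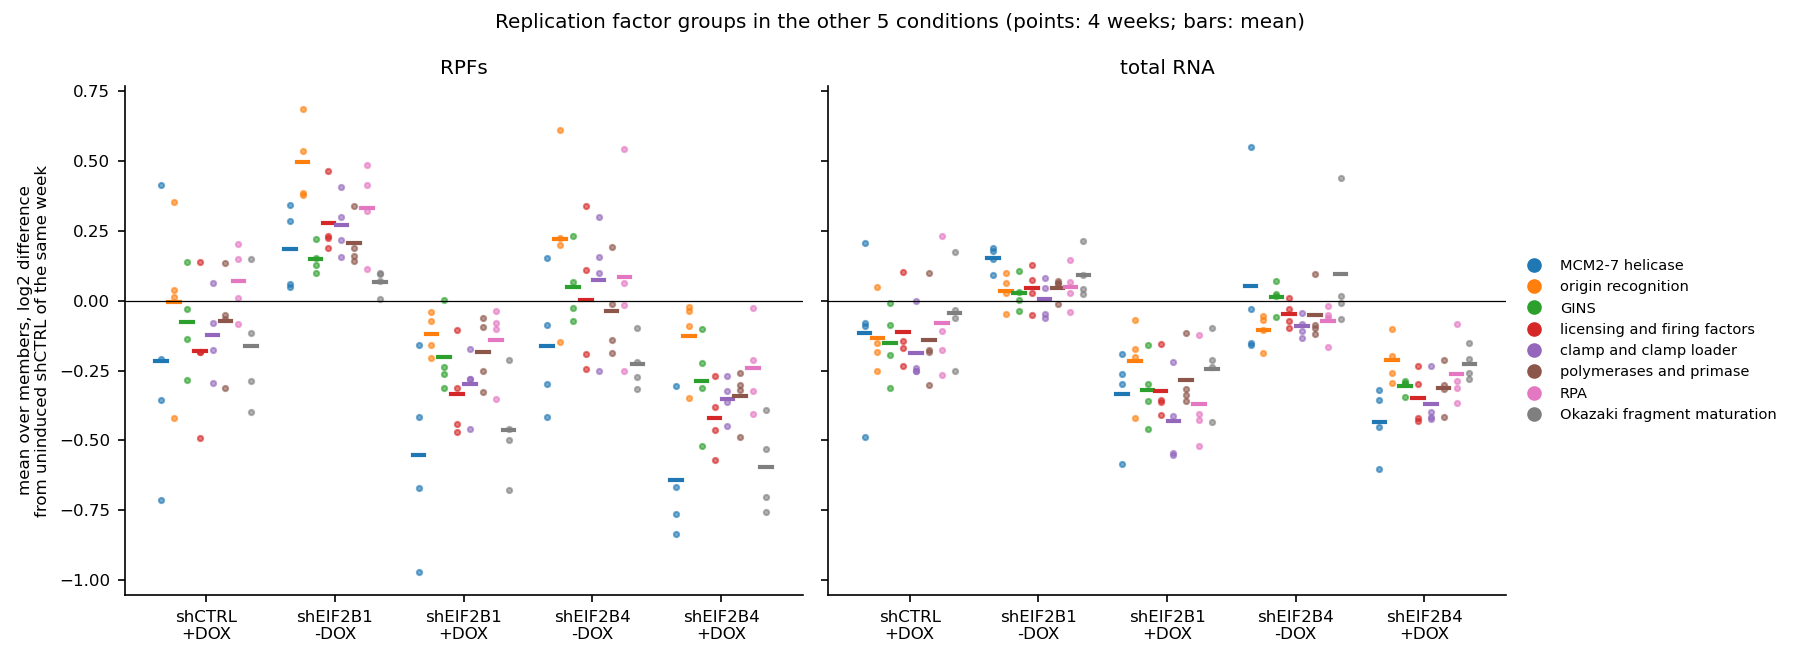
Mean over the members of each role in the other 5 conditions, as the log2 difference from uninduced shCTRL of the same week (y axis), for RPFs (left) and total RNA (right); points are the 4 weeks and bars their mean. In RPFs the origin recognition genes were at 0.50 ± 0.15 (SD, n = 4) in uninduced and -0.12 ± 0.08 in induced shEIF2B1, and the MCM genes at 0.18 ± 0.15 and -0.55 ± 0.35.

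RPF responses followed GC3 within the 43 genes as they did over all genes. Of the 20 genes with GC3 under 50%, 17 (85%) fell in RPFs after shEIF2B1, against 35.03% of all genes under 50%. Of the 23 with GC3 of 50% or over, 10 (43.48%) fell, against 4.53% of all genes there. The medians were -0.63 and -0.41 for the 20 and the 23 genes, and -0.28 and 0.11 for all genes on each side. Across the 43 genes Pearson's r between GC3 and the RPF response was 0.622 (0.609 over 10847 genes), and with the uninduced difference between shEIF2B1 and shCTRL it was -0.848 (-0.794 over all genes). These are correlations across genes, which share the libraries and are not independent replicates. The length of the coding sequence had r of -0.0414 with the RPF response. When a smooth GC3 trend was removed from each library, an alternative chosen after the data had been seen, 12 of the 43 genes fell, where 4.96% of all genes did, 0 rose and the median response was -0.36. MCM2 was at -0.83, MCM5 at -0.65, MCM4 at -0.63, MCM7 at -0.60 and LIG1 at -0.77 in that fit, all called, as was DBF4 at -0.47, whereas WDHD1 at -0.36 and ORC2 at -0.39 did not pass the test. The uninduced difference in RPFs then passed the test for 14 genes in place of 31, against 16.7% of all genes.

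In total RNA 5 of the 43 genes fell after shEIF2B1, MCM2, ORC1, CDC7, PCNA and RFC3, and 0 rose, against 1.13% of all 11947 genes that fell. Of all genes with a known GC3, 182 of the 6803 at 50% or over and 55 of the 3745 below rose. The median response was -0.225 for the 43 genes and -0.00378 for all genes, and 42 of the 43 were below 0. PCNA total RNA in shEIF2B1 cells was 11.35, 11.53, 11.36 and 11.32 without DOX and 10.67, 10.40, 10.18 and 10.53 with DOX. PCNA mRNA in shCTRL cells was 11.23, 11.39, 11.43 and 11.42 without DOX and 11.22, 11.14, 10.96 and 10.99 with DOX. The PCNA groups did not overlap in either line, the drop was larger in shEIF2B1, and the response of -0.65 ± 0.13 (SE, adjusted p = 0.0116) was called without any single replicate. MCM2 total RNA in shEIF2B1 cells was 8.40, 8.75, 8.43 and 8.74 without DOX and 7.83, 8.17, 7.82 and 7.84 with DOX. MCM2 mRNA in shCTRL cells was 8.16, 8.47, 8.17 and 8.57 without DOX and 8.45, 8.07, 8.24 and 8.44 with DOX. For MCM2 the groups were separate in shEIF2B1 and overlapped in shCTRL, with a response of -0.62 ± 0.15 (SE, adjusted p = 0.0386). ORC1 total RNA in shEIF2B1 cells was 7.69, 7.66, 7.69 and 7.70 without DOX and 7.15, 7.35, 7.23 and 7.29 with DOX. ORC1 mRNA in shCTRL cells was 7.52, 7.65, 7.55 and 7.83 without DOX and 7.53, 7.63, 7.63 and 7.63 with DOX. The ORC1 response was -0.40 ± 0.10 (SE, adjusted p = 0.0531), from separate groups in shEIF2B1. CDC7 total RNA in shEIF2B1 cells was 8.20, 8.18, 8.16 and 8.30 without DOX and 7.75, 7.46, 7.73 and 7.82 with DOX. CDC7 mRNA in shCTRL cells was 8.07, 8.15, 8.16 and 8.35 without DOX and 8.11, 7.96, 7.95 and 8.14 with DOX. The CDC7 response was -0.38 ± 0.11 (SE, adjusted p = 0.0772). RFC3 total RNA in shEIF2B1 cells was 9.70, 9.69, 9.62 and 9.72 without DOX and 9.24, 8.74, 8.90 and 9.24 with DOX. RFC3 mRNA in shCTRL cells was 9.48, 9.63, 9.51 and 9.75 without DOX and 9.51, 9.24, 9.20 and 9.49 with DOX. The RFC3 response was -0.42 ± 0.12 (SE, adjusted p = 0.0983), again from separate groups in shEIF2B1 and overlapping ones in shCTRL. Without replicate 1, 3 or 4 the calls of MCM2 (adjusted p = 0.161 to 0.27), ORC1 (0.173 to 0.4), CDC7 (0.15 to 0.406) and RFC3 (0.232 to 0.355) were lost, CDC7 also without replicate 2 (0.117), and over all alternatives the adjusted p of the 5 calls ran from 4.41e-05 to 0.406.

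The other MCM mRNAs were lower on DOX in every shEIF2B1 week without passing the test. MCM3 total RNA in shEIF2B1 cells was 9.91, 10.12, 9.88 and 10.01 without DOX and 9.50, 9.72, 9.44 and 9.46 with DOX. MCM3 mRNA in shCTRL cells was 9.74, 10.003, 9.66 and 9.97 without DOX and 9.90, 9.42, 9.46 and 9.88 with DOX. MCM3 had a response of -0.27 ± 0.15 (SE, adjusted p = 0.394). MCM4 total RNA in shEIF2B1 cells was 10.48, 10.63, 10.36 and 10.59 without DOX and 10.03, 10.02, 9.88 and 9.94 with DOX. MCM4 mRNA in shCTRL cells was 10.17, 10.30, 10.08 and 10.45 without DOX and 10.37, 9.85, 9.94 and 10.30 with DOX. MCM4 had a response of -0.41 ± 0.13 (SE, adjusted p = 0.134), and its shEIF2B1 groups, like those of MCM3, did not overlap. MCM5 total RNA in shEIF2B1 cells was 7.68, 7.65, 7.66 and 7.78 without DOX and 7.46, 7.59, 7.10 and 7.12 with DOX. MCM5 mRNA in shCTRL cells was 7.54, 7.75, 7.53 and 7.70 without DOX and 7.71, 7.34, 7.46 and 7.59 with DOX. MCM5 had a response of -0.27 ± 0.14 (SE, adjusted p = 0.394). MCM6 total RNA in shEIF2B1 cells was 9.77, 10.13, 9.55 and 9.97 without DOX and 9.53, 9.38, 9.51 and 9.38 with DOX. MCM6 mRNA in shCTRL cells was 9.64, 9.86, 9.59 and 9.93 without DOX and 9.82, 9.17, 9.51 and 9.98 with DOX. MCM6 had a response of -0.27 ± 0.19 (SE, adjusted p = 0.541), the smallest in size of the ring. MCM7 total RNA in shEIF2B1 cells was 10.55, 10.84, 10.51 and 10.72 without DOX and 10.15, 10.38, 10.16 and 10.01 with DOX. MCM7 mRNA in shCTRL cells was 10.40, 10.66, 10.46 and 10.64 without DOX and 10.64, 10.26, 10.40 and 10.52 with DOX. MCM7 had a response of -0.39 ± 0.14 (SE, adjusted p = 0.176). In all 6 MCM genes the shEIF2B1 groups were separate in total RNA and the shCTRL groups overlapped. Without replicate 2, the number of the 43 genes called in total RNA was 10, all lower (1.97% of all genes lower in that fit).

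In all, 6 of the 43 genes fell in TE after shEIF2B1 and 0 rose, against 4.13% of 10836 genes that fell. They were ORC4, DBF4, ORC2, WDHD1, POLA1 and MCM6, and all 6 have GC3 under 50%. Most genes that fell in TE share this: over all genes with a known GC3, 366 under 50% fell and 65 at 50% or over. Of the same genes, 9 under 50% rose and 307 at 50% or over. TE of ORC4 in shEIF2B1 cells was -3.60, -2.02, -3.26 and -2.18 without DOX and -3.84, -2.81, -3.80 and -2.64 with DOX. TE of ORC4 in shCTRL cells was -3.90, -3.15, -4.02 and -3.01 without DOX and -3.55, -3.28, -3.21 and -2.65 with DOX. ORC4 was lower on DOX in 4 of 4 shEIF2B1 weeks and higher in 3 of 4 shCTRL weeks, and the response was -0.86 ± 0.23 (SE, adjusted p = 0.0488). TE of DBF4 in shEIF2B1 cells was -4.22, -3.02, -4.16 and -3.12 without DOX and -5.05, -3.54, -4.52 and -3.70 with DOX. TE of DBF4 in shCTRL cells was -4.63, -4.02, -4.66 and -4.01 without DOX and -4.61, -4.07, -4.28 and -3.77 with DOX. DBF4 had a response of -0.72 ± 0.22 (SE, adjusted p = 0.0734), with overlap between weeks in both lines. TE of ORC2 in shEIF2B1 cells was -1.86, -0.75, -1.84 and -0.73 without DOX and -2.20, -1.10, -2.19 and -1.14 with DOX. TE of ORC2 in shCTRL cells was -2.24, -1.43, -2.34 and -1.48 without DOX and -1.87, -1.49, -1.90 and -1.29 with DOX. ORC2, which anchors the complex with ORC3, had a response of -0.60 ± 0.17 (SE, adjusted p = 0.0637). TE of WDHD1 in shEIF2B1 cells was -2.86, -1.72, -2.35 and -1.73 without DOX and -3.02, -2.16, -2.92 and -2.32 with DOX. TE of WDHD1 in shCTRL cells was -2.997, -2.52, -2.89 and -2.22 without DOX and -2.94, -2.48, -2.46 and -2.25 with DOX. WDHD1 had a response of -0.56 ± 0.19 (SE, adjusted p = 0.0917). TE of POLA1 in shEIF2B1 cells was -1.94, -1.36, -1.80 and -1.44 without DOX and -2.33, -1.86, -1.97 and -1.71 with DOX. TE of POLA1 in shCTRL cells was -2.27, -1.74, -2.11 and -1.59 without DOX and -1.93, -1.91, -1.89 and -1.35 with DOX. POLA1 had a response of -0.49 ± 0.16 (SE, adjusted p = 0.0946). TE of MCM6 in shEIF2B1 cells was 0.38, 0.79, 0.64 and 0.74 without DOX and 0.01, 0.36, 0.26 and 0.38 with DOX. TE of MCM6 in shCTRL cells was 0.04, 0.50, 0.25 and 0.60 without DOX and 0.33, 0.42, 0.24 and 0.51 with DOX. MCM6 was the only one of the 6 with separate groups in shEIF2B1, and its response was -0.41 ± 0.14 (SE, adjusted p = 0.0908). Genes with called falls in total RNA had TE responses that did not pass the test: 0.01 for MCM2, 0.17 for PCNA, -0.26 for CDC7, -0.21 for RFC3 and -0.47 for ORC1, with adjusted p from 0.247 to 0.982. Across the 43 genes r between GC3 and the TE response was 0.708 (0.616 over 10548 genes). Without replicate 1, 3 or 4, without the replicate block, with induced lines only or with the GC3 trend removed 0 genes were called in TE, and in that last fit 7 had an unadjusted p under 0.05; without replicate 1, 3 or 4 the adjusted p of the 6 genes ran from 0.204 to 0.383. Without replicate 2, 10 genes were called in TE, all lower (6.99% of all genes lower in that fit). Adjusted p of the 6 calls ran from 0.0154 to 0.991 over all alternatives.

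After shEIF2B4 limma called 0 of the 43 genes in RPFs, with 8 at an unadjusted p under 0.05, against 0.87% of all genes that fell. The median response was -0.31 (-0.02 over all genes), and 37 of the 43 were below 0. Values for weeks 1 to 4 were as follows, by role. MCM2 RPFs in shEIF2B4 cells were 8.23, 8.62, 8.88 and 8.49 without DOX and 8.27, 7.73, 7.93 and 8.32 with DOX. MCM3 RPFs in shEIF2B4 cells were 9.72, 10.12, 10.23 and 9.99 without DOX and 9.56, 9.52, 9.37 and 9.72 with DOX. MCM4 RPFs in shEIF2B4 cells were 9.22, 9.93, 10.05 and 9.71 without DOX and 9.26, 9.06, 8.95 and 9.44 with DOX. Responses of these 3 helicase subunits were -0.21, -0.17 and -0.38, and only MCM3 had separate groups. MCM5 RPFs in shEIF2B4 cells were 8.08, 8.27, 8.56 and 8.31 without DOX and 8.08, 7.68, 7.79 and 8.07 with DOX. MCM6 RPFs in shEIF2B4 cells were 9.39, 10.45, 10.49 and 10.36 without DOX and 9.33, 9.64, 9.47 and 10.10 with DOX. MCM7 RPFs in shEIF2B4 cells were 11.20, 11.69, 11.89 and 11.63 without DOX and 11.30, 10.95, 11.10 and 11.32 with DOX. Responses of MCM5, MCM6 and MCM7 were -0.17, -0.43 and -0.22, with overlap in each and the lowest uninduced value in week 1. ORC1 RPFs in shEIF2B4 cells were 6.06, 6.09, 6.63 and 6.27 without DOX and 5.50, 5.35, 5.56 and 5.85 with DOX. ORC2 RPFs in shEIF2B4 cells were 6.53, 7.99, 7.94 and 8.17 without DOX and 6.77, 7.53, 7.27 and 8.01 with DOX. ORC1 had separate groups and a response of -0.50 ± 0.23 (SE, adjusted p = 0.295), and ORC2 had overlapping groups and -0.45 ± 0.26 (SE, adjusted p = 0.412). ORC4 RPFs in shEIF2B4 cells were 6.25, 7.74, 7.31 and 7.80 without DOX and 6.56, 7.13, 6.75 and 7.45 with DOX. ORC6 RPFs in shEIF2B4 cells were 8.19, 8.60, 8.95 and 8.82 without DOX and 8.61, 7.96, 8.51 and 8.52 with DOX. ORC4 was lower on DOX in 3 of 4 weeks with a response of -0.49 ± 0.23 (SE, adjusted p = 0.308), and ORC6 had 0.21 ± 0.19 (SE, adjusted p = 0.603), the highest of the 43. GINS1 RPFs in shEIF2B4 cells were 6.83, 8.05, 7.80 and 8.16 without DOX and 6.66, 7.41, 7.21 and 7.75 with DOX. GINS2 RPFs in shEIF2B4 cells were 9.93, 9.69, 9.82 and 9.87 without DOX and 9.39, 8.99, 9.50 and 9.22 with DOX. GINS3 RPFs in shEIF2B4 cells were 6.71, 6.46, 6.62 and 6.48 without DOX and 6.67, 6.30, 6.53 and 6.17 with DOX. GINS2 had separate groups, and the 3 GINS responses were -0.41, -0.23 and -0.27. Adjusted p of the genes given so far ran from 0.295 to 0.738.

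CDC7 RPFs in shEIF2B4 cells were 6.10, 6.92, 6.90 and 6.98 without DOX and 5.58, 6.18, 5.85 and 6.81 with DOX. DBF4 RPFs in shEIF2B4 cells were 7.35, 8.98, 8.60 and 9.18 without DOX and 7.44, 7.97, 7.84 and 8.34 with DOX. The origin-firing kinase CDC7 was lower on DOX in all 4 weeks with a response of -0.59 ± 0.20 (SE, adjusted p = 0.157), and DBF4 had -0.55 ± 0.23 (SE, adjusted p = 0.251). CDT1 RPFs in shEIF2B4 cells were 8.54, 8.16, 8.16 and 7.77 without DOX and 8.47, 7.85, 7.80 and 7.58 with DOX. WDHD1 RPFs in shEIF2B4 cells were 4.93, 5.93, 5.98 and 5.86 without DOX and 5.13, 5.84, 5.45 and 5.86 with DOX. CDT1 had a response of 0.21 ± 0.19 (SE, adjusted p = 0.61) and WDHD1 of -0.23 ± 0.21 (SE, adjusted p = 0.636). PCNA RPFs in shEIF2B4 cells were 10.90, 11.59, 11.40 and 11.58 without DOX and 10.79, 10.91, 10.69 and 11.15 with DOX. RFC3 RPFs in shEIF2B4 cells were 8.10, 8.99, 8.91 and 9.09 without DOX and 8.10, 8.11, 8.30 and 8.74 with DOX. PCNA had -0.31 ± 0.16 (SE, adjusted p = 0.374) and RFC3 -0.41 ± 0.20 (SE, adjusted p = 0.337), both with overlapping groups. RFC4 RPFs in shEIF2B4 cells were 7.70, 8.99, 8.84 and 9.13 without DOX and 7.65, 8.38, 8.18 and 8.83 with DOX. RFC5 RPFs in shEIF2B4 cells were 9.40, 9.37, 9.47 and 9.47 without DOX and 9.13, 8.77, 8.97 and 9.10 with DOX. RFC4 had -0.33 ± 0.19 (SE, adjusted p = 0.408) and RFC5, with separate groups, -0.14 ± 0.15 (SE, adjusted p = 0.679). POLA1 RPFs in shEIF2B4 cells were 6.57, 7.39, 7.68 and 7.50 without DOX and 6.33, 7.08, 6.87 and 7.58 with DOX. PRIM2 RPFs in shEIF2B4 cells were 5.90, 7.46, 7.38 and 7.47 without DOX and 6.31, 6.37, 6.47 and 7.11 with DOX. POLD2 RPFs in shEIF2B4 cells were 9.97, 9.54, 9.56 and 9.43 without DOX and 10.04, 9.51, 9.71 and 9.45 with DOX. Their responses were -0.37, -0.46 and 0.13, and week 1 of uninduced PRIM2 lay far under the other weeks. RPA2 RPFs in shEIF2B4 cells were 8.32, 9.11, 8.86 and 9.28 without DOX and 8.19, 8.48, 8.40 and 8.82 with DOX. RPA3 RPFs in shEIF2B4 cells were 8.67, 9.73, 10.14 and 10.42 without DOX and 8.63, 9.40, 9.50 and 9.88 with DOX. RPA3 had the lowest response of the 43 genes to shEIF2B4, -0.60 ± 0.19 (SE, adjusted p = 0.138), and RPA2 had -0.38 ± 0.15 (SE, adjusted p = 0.235). FEN1 RPFs in shEIF2B4 cells were 8.93, 9.30, 9.32 and 9.18 without DOX and 8.96, 8.74, 8.73 and 9.02 with DOX. LIG1 RPFs in shEIF2B4 cells were 7.77, 7.40, 7.70 and 7.37 without DOX and 7.58, 6.89, 7.09 and 7.02 with DOX. FEN1 had 0.07 ± 0.18 (SE, adjusted p = 0.889) and LIG1 -0.48 ± 0.14 (SE, adjusted p = 0.121), with LIG1 lower on DOX in every week. Without replicate 1 the number of RPF calls was 13 in place of 0, all lower (8.17% of all genes lower in that fit), and without any other replicate it was 0.

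In total RNA 3 genes fell after shEIF2B4, MCM2, CDT1 and LIG1, and 0 rose, against 1.62% of all genes that fell, with a median response of -0.13 (0.00182 over all genes). Of all genes with a known GC3, 207 of the 6803 at 50% or over and 189 of the 3745 below rose. MCM2 total RNA in shEIF2B4 cells was 8.10, 8.33, 8.83 and 8.35 without DOX and 7.74, 7.73, 7.74 and 7.97 with DOX. The MCM2 groups did not overlap, all induced values but that of week 4 lay between 7.73 and 7.74, and the response was -0.56 ± 0.18 (SE, adjusted p = 0.0939). CDT1 total RNA in shEIF2B4 cells was 7.74, 8.03, 8.01 and 7.84 without DOX and 7.75, 7.55, 7.57 and 7.43 with DOX. CDT1 mRNA in shCTRL cells was 7.69, 8.01, 7.89 and 7.76 without DOX and 7.87, 8.09, 8.12 and 7.70 with DOX. CDT1 was lower on DOX in 3 of 4 shEIF2B4 weeks and higher in 3 of 4 shCTRL weeks, so the groups overlapped in both lines, and the response was -0.44 ± 0.12 (SE, adjusted p = 0.0506). LIG1 total RNA in shEIF2B4 cells was 6.50, 6.69, 7.03 and 6.72 without DOX and 6.24, 6.50, 6.31 and 6.43 with DOX. LIG1 mRNA in shCTRL cells was 6.40, 6.60, 6.48 and 6.55 without DOX and 6.67, 6.56, 6.60 and 6.50 with DOX. LIG1 had separate groups in shEIF2B4 and a response of -0.44 ± 0.13 (SE, adjusted p = 0.0714). Leaving out replicate 2, 3 or 4 ended all 3 calls (adjusted p from 0.128 to 0.298), and leaving out replicate 1 ended those of MCM2 (0.154) and LIG1 (0.146), with adjusted p over all alternatives from 0.000527 to 0.298. MCM3 total RNA in shEIF2B4 cells was 9.46, 9.91, 10.25 and 9.83 without DOX and 9.38, 9.26, 9.30 and 9.53 with DOX. MCM4 total RNA in shEIF2B4 cells was 10.13, 10.39, 10.70 and 10.37 without DOX and 9.91, 9.74, 9.79 and 9.86 with DOX. MCM5 total RNA in shEIF2B4 cells was 7.31, 7.80, 8.08 and 7.71 without DOX and 7.23, 7.30, 7.14 and 7.34 with DOX. Responses of these 3 mRNAs were -0.31, -0.44 and -0.37, with separate groups for MCM4 only. MCM6 total RNA in shEIF2B4 cells was 9.43, 9.81, 9.96 and 9.66 without DOX and 9.28, 9.27, 9.31 and 9.62 with DOX. MCM7 total RNA in shEIF2B4 cells was 10.26, 10.64, 10.95 and 10.43 without DOX and 10.18, 10.13, 10.07 and 10.22 with DOX. PCNA total RNA in shEIF2B4 cells was 11.13, 11.34, 11.11 and 11.39 without DOX and 10.81, 10.89, 10.57 and 10.63 with DOX. Responses of MCM6, MCM7 and PCNA mRNA were -0.21, -0.33 and -0.22, with separate groups for MCM7 and PCNA. In TE limma called 0 of the 43 genes, with 9 at an unadjusted p under 0.05, against 0.0277% of all genes that fell. The median TE response was -0.14, MCM2 was at 0.35 and CDT1 at 0.65, the lowest was RPA3 at -0.60, and r with GC3 was 0.869 across the 43 genes. Without replicate 1 there were 7 TE calls, 5 lower and 2 higher (13.1% of all genes in either direction).

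Tested against each other over all 24 lysates, the responses to the 2 knockdowns differed in 0 of the 43 genes by limma, in RPFs (0.00897% of all genes), total RNA (0.1%) and TE (0%). At an unadjusted p under 0.05 there were 2 genes in RPFs, 7 in total RNA and 3 in TE. The 2 in RPFs were WDHD1 and GINS3. MCM4 RPFs differed by -0.33 (95% interval -0.82 to 0.17), GINS3 by 0.30 (0.01 to 0.60) and WDHD1 by -0.55 (-0.97 to -0.13), shEIF2B1 minus shEIF2B4. PCNA total RNA differed by -0.43 (-0.69 to -0.17) and CDT1 total RNA by 0.38 (0.12 to 0.63), with adjusted p of 0.219 and 0.26. Both responses share the shCTRL libraries, and the intervals do not show that the knockdowns act alike on these genes.

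In shCTRL cells DOX was followed by lower values of some of these genes. There DOX also induced the non-targeting shRNA, and the drug and that shRNA cannot be told apart. In RPFs ORC6, GINS2, CDT1 and FEN1 fell and 0 rose, against 4.62% of all genes that fell. Of all genes with a known GC3, 309 of the 7064 at 50% or over and 261 of the 3783 below rose. From the values given above, the changes were -0.45 ± 0.09 (SE, adjusted p = 0.0393) for ORC6, -0.44 ± 0.13 (SE, adjusted p = 0.0784) for CDT1 and -0.39 ± 0.11 (SE, adjusted p = 0.0716) for FEN1. GINS2 in shCTRL cells was 9.79, 9.75, 9.999 and 9.87 without DOX and 9.78, 9.13, 9.64 and 9.58 with DOX. GINS2 changed by -0.32 ± 0.10 (SE, adjusted p = 0.0968), and only the ORC6 groups did not overlap. In total RNA ORC6, PCNA and RFC4 fell and 0 rose, against 2.18% of all genes that fell. Of all genes with a known GC3, 180 of the 6803 at 50% or over and 73 of the 3745 below rose. ORC6 mRNA in shCTRL cells was 9.06, 9.11, 9.37 and 9.30 without DOX and 8.88, 8.63, 8.56 and 8.93 with DOX. RFC4 mRNA in shCTRL cells was 8.68, 8.87, 9.05 and 8.87 without DOX and 8.49, 8.64, 8.76 and 8.46 with DOX. ORC6 mRNA changed by -0.46 ± 0.09 (SE, adjusted p = 0.0574), RFC4 by -0.28 ± 0.07 (SE, adjusted p = 0.0819) and PCNA by -0.29 ± 0.08 (SE, adjusted p = 0.0966), each lower in 4 of 4 weeks, with separate groups for ORC6 and PCNA. In TE limma called 0, with 5 at an unadjusted p under 0.05, against 0.203% of all genes that fell. These counts changed with every week left out: without week 1, 19 genes were called in RPFs, 18 lower and 1 higher (31.6% of all genes in either direction), 22 in total RNA, all lower (20.5%), and 4 in TE, 3 lower and 1 higher (5.73%), and without any other week 0 in RPFs, at most 1 in total RNA and 0 in TE. Without replicate 2, 3 or 4 the adjusted p of the RPF calls lay between 0.147 and 0.477 and that of the total RNA calls between 0.0965, for ORC6 without replicate 2, and 0.469, and over all alternatives the 7 calls ran from 6.80e-05 to 0.678.

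Genes that serve the fork without belonging to the 43 were counted from lists written with earlier results of these data known. Of 29 accessory and fork protection genes 13 fell in RPFs after shEIF2B1 and 1 rose, where 15.3% of all genes fell. CLSPN, which carries the checkpoint signal from the fork, fell by 1.05 ± 0.21 (SE, adjusted p = 0.00368) on the log2 scale, ATAD2 by 1.04 ± 0.22 (SE, adjusted p = 0.00478), and RNASEH2C, a subunit of ribonuclease H2, rose by 0.43 ± 0.14 (SE, adjusted p = 0.0409). Of 25 nucleotide supply genes 8 fell, with RRM1, the large subunit of ribonucleotide reductase, at -0.84 ± 0.18 (SE, adjusted p = 0.00415) and GMPS, which makes GMP, at -0.80 ± 0.15 (SE, adjusted p = 0.00164). Of 11 replication-coupled chromatin genes 3 fell, NASP (-0.81 ± 0.16 SE, adjusted p = 0.00277) and SUPT16H (-0.73 ± 0.19 SE, adjusted p = 0.0123), histone chaperones, with the largest falls. Of 13 E2F and pocket protein genes 2 fell, E2F8 (-0.46 ± 0.19 SE, adjusted p = 0.0929) and RBL1 (-0.46 ± 0.18 SE, adjusted p = 0.0854). Among the mitotic markers TTK (-1.46 ± 0.18 SE, adjusted p = 2.94e-05) and KIF11 (-1.26 ± 0.19 SE, adjusted p = 0.000223) fell most. In total RNA after shEIF2B1, where 1.13% of all genes fell, the falls were 2 of 30 accessory genes, TOP2A (-0.48 ± 0.12 SE, adjusted p = 0.0564) and ATAD2 (-0.46 ± 0.11 SE, adjusted p = 0.0419), and 9 of 15 mitotic markers, led by TTK (-0.74 ± 0.15 SE, adjusted p = 0.00927) and KIF20A (-0.64 ± 0.12 SE, adjusted p = 0.00813). No gene of the nucleotide supply, chromatin or E2F lists was called in total RNA. In TE, where 4.13% of all genes fell, 6 of 29 accessory genes fell and RNASEH2C rose (0.46 ± 0.15 SE, adjusted p = 0.0871), with the falls led by TOP1 (-0.84 ± 0.21 SE, adjusted p = 0.0417) and CLSPN (-0.83 ± 0.19 SE, adjusted p = 0.0366), 3 nucleotide supply genes fell and 1, DCTPP1 (0.42 ± 0.13 SE, adjusted p = 0.0835), rose, and NASP fell (-0.48 ± 0.14 SE, adjusted p = 0.0679). After shEIF2B4, where 0.87% of all genes fell in RPFs and 1.62% in total RNA, the RPF calls in these lists were ATAD2 (-0.64 ± 0.18 SE, adjusted p = 0.0913) and 2 mitotic markers, CENPF (-0.64 ± 0.17 SE, adjusted p = 0.0786) and MKI67 (-0.63 ± 0.17 SE, adjusted p = 0.085), and in total RNA 6 mitotic markers fell, led by KIF20A (-0.51 ± 0.12 SE, adjusted p = 0.0208) and MKI67 (-0.50 ± 0.14 SE, adjusted p = 0.0564).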

How the data were processed

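Cytoplasmic lysates of the 24 cultures were used for RPFs (RNase I digestion, monosome and disome fractions) and for total RNA depleted of rRNA. According to the labels and methods, RPF reads were trimmed with cutadapt 1.18, deduplicated, freed of rRNA, tRNA and mitochondrial RNA and aligned with Bowtie2 to the most expressed transcript of each gene (GENCODE), and reads of footprint length on coding sequences were counted; total RNA was quantified with RSEM; replicate 3 joined a pair of sequencing runs. The authors deposited DESeq2 regularized log2 values, 1 table for RPFs and 1 for total RNA; whether all lines were transformed together is not given in the sources used here. Regularization pulls the changes of weakly measured genes toward 0, so log2 differences understate these. The files hold no counts, depth is unknown, and only the 4 replicates set the precision.

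Responses were fitted in limma 3.58.1 (R 4.3.3) with an empirical Bayes variance trend and the week as a replicate block, on all genes with Benjamini-Hochberg adjustment, two-sided, called at an adjusted p under 0.1. The labels place the 4 replicates in separate weeks, lysates with the same replicate number were taken as 1 week, and samples of the same number deviated together with r over 0.1 in 52 of 60 pairs of groups in RPFs, 37 of 60 in total RNA and 55 of 60 in TE. TE used the 10836 genes in both tables. Replicates are separate weeks of the same lines, and the block removes the level that the groups of a week share. The p-values therefore measure how far differences between groups varied from week to week, and not the spread of levels between weeks. The step was tested on simulated data for the shEIF2B1 response, where 152 of 200 changed genes were recovered in RPFs with 11 false calls. In total RNA 193 of 200 were recovered with 27 false calls, and in TE 142 of 200 with 11. How recovery depends on the size of a response or on GC3 was not tested. Recovery and false calls in the measured libraries were not tested either. GC3, lengths and coding sequences came from GENCODE v29 on GRCh38, which gave a coding sequence for 97.34% of RPF genes; 30.36% had the version named in the files. The 43 genes and the gene lists were chosen with earlier results of these data known. Values in each lysate are given for MCM2 to MCM7 and PCNA, for genes called in total RNA, in TE, between the knockdowns or on DOX in shCTRL, and for the lowest and highest RPF response to shEIF2B1 in each role. Alternatives were no block, no variance trend, the lowest 25% of genes left out, libraries centred on their median, all 24 lysates in one fit, no shCTRL correction, a threshold of 0.05, each replicate left out, induced lines only and a GC3 trend (spline with 5 degrees of freedom) removed, the last 2 chosen after the data had been seen. Fits without the shCTRL correction or of induced lines only test other differences than the response, so ranges over all alternatives mix contrasts.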

Additional observations from a re-analysis of the deposited data

Results flagged for a closer look

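Among the 28 genes given by lysate, the 4 values of a group were examined for a single value far from the other 3, in 336 groups of RPF and total RNA values. In 19 groups (5.65%) the gap to the nearest value, as a share of the group's range, was above Dixon's 95% critical value, where chance gives 5%. Of the 19, 8 were in RPFs and 11 in total RNA, and 8 were in week 1, 4 in week 2, 1 in week 3 and 6 in week 4.

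In 5 cases the value was that of RPFs of uninduced shEIF2B4 cells in week 1, each the lowest of its group. MCM6 RPFs in uninduced shEIF2B4 had its lowest value, 9.39, in week 1, with the nearest other week at 10.36. ORC2 RPFs in uninduced shEIF2B4 had its lowest value, 6.53, in week 1, with the nearest other week at 7.94. CDC7 RPFs in uninduced shEIF2B4 had its lowest value, 6.10, in week 1, with the nearest other week at 6.90. WDHD1 RPFs in uninduced shEIF2B4 had its lowest value, 4.93, in week 1, with the nearest other week at 5.86. PRIM2 RPFs in uninduced shEIF2B4 had its lowest value, 5.90, in week 1, with the nearest other week at 7.38.

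Another 4 were total RNA of induced shEIF2B4 cells in week 4, each the highest of its group. MCM2 total RNA in induced shEIF2B4 had its highest value, 7.97, in week 4, with the nearest other week at 7.74. MCM6 total RNA in induced shEIF2B4 had its highest value, 9.62, in week 4, with the nearest other week at 9.31. GINS2 total RNA in induced shEIF2B4 had its highest value, 8.80, in week 4, with the nearest other week at 8.70. RFC5 total RNA in induced shEIF2B4 had its highest value, 9.66, in week 4, with the nearest other week at 9.53.

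The others were spread over genes and groups. MCM2 total RNA in induced shEIF2B1 had its highest value, 8.17, in week 2, with the nearest other week at 7.84. MCM6 RPFs in induced shEIF2B1 had its lowest value, 9.54, in week 1, with the nearest other week at 9.74. ORC1 total RNA in induced shCTRL had its lowest value, 7.53, in week 1, with the nearest other week at 7.63. ORC4 RPFs in induced shCTRL had its highest value, 7.58, in week 4, with the nearest other week at 6.82. ORC6 RPFs in induced shEIF2B4 had its lowest value, 7.96, in week 2, with the nearest other week at 8.51. GINS2 total RNA in induced shEIF2B1 had its lowest value, 8.38, in week 3, with the nearest other week at 8.74. CDT1 total RNA in induced shEIF2B1 had its highest value, 8.05, in week 2, with the nearest other week at 7.63. CDC7 total RNA in uninduced shEIF2B4 had its highest value, 8.16, in week 4, with the nearest other week at 7.96. RFC5 total RNA in uninduced shEIF2B4 had its lowest value, 9.47, in week 1, with the nearest other week at 9.77. POLD2 total RNA in induced shEIF2B1 had its highest value, 10.40, in week 2, with the nearest other week at 10.09. Genes of 1 library are measured together, so the groups are not independent and the chance share of 1 in 20 is only a rough guide. Several flags came from the library of RPFs of uninduced shEIF2B4 in week 1, which is part of the reference of the shEIF2B4 RPF responses. Whether that library was shifted as a whole was not tested.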

How the results depend on the processing

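All counts here are of the 43 genes. Where no share of all genes is given for a fit, here or above, its count does not show whether these genes stood apart. Of 41 called responses of single genes, 1 changed sign under an alternative run, that of ORC5 in RPFs after shEIF2B1, at 0.17 with induced lines only. Without the replicate block 0 genes were called in RPFs after shEIF2B1 in place of 27, with 12 at an unadjusted p under 0.05, 2 in place of 5 in total RNA and 0 in place of 6 in TE. The unblocked fit also gave 0 in place of 3 in total RNA after shEIF2B4, 0 in place of 4 in RPFs and 0 in place of 3 in total RNA on DOX in shCTRL, 0 in place of 31 in RPFs and 0 in place of 2 in total RNA of uninduced shEIF2B1, and 0 in place of 4 in RPFs of uninduced shEIF2B4; it changed no other count. With each replicate left out in turn, the counts after shEIF2B1 ran from 15 to 27 in RPFs, 1 to 10 in total RNA and 0 to 10 in TE. After shEIF2B4 they ran from 0 to 13, 0 to 1 and 0 to 7, and on DOX in shCTRL from 0 to 19, 0 to 22 and 0 to 4. Between uninduced lines they were 26 to 31 (RPFs) and 0 to 1 (total RNA) for shEIF2B1, and 0 to 20 (RPFs) for shEIF2B4; the highest counts of shEIF2B4 and shCTRL came without replicate 1, and those after shEIF2B1 without replicate 2. Without the shCTRL correction, 31 genes were called in total RNA, all lower, and 11 in TE, 9 lower and 2 higher, in shEIF2B1; in shEIF2B4 29 in RPFs and 28 in total RNA were called, all lower, and 1 in TE, higher. With induced lines only, the counts were 7, 8 and 0 in RPFs, total RNA and TE for shEIF2B1, and 27 in RPFs (26 lower, 1 higher) and 19 in total RNA for shEIF2B4. With the GC3 trend removed they were 12, 8 and 0 for shEIF2B1, 1 in RPFs for shEIF2B4, 14 in RPFs of uninduced shEIF2B1 and 0 in RPFs of uninduced shEIF2B4. At a threshold of 0.05 they were 2 in total RNA and 1 in TE after shEIF2B1, 0 in total RNA after shEIF2B4, 1 in RPFs and 0 in total RNA on DOX in shCTRL, 1 in total RNA of uninduced shEIF2B1 and 0 in RPFs of uninduced shEIF2B4. One fit of all 24 lysates gave 0 in TE after shEIF2B1, 1 in RPFs after shEIF2B4, 0 in total RNA of uninduced shEIF2B1 and 8 in RPFs of uninduced shEIF2B4. Centring libraries on their median gave 3 in TE after shEIF2B1, 1 in TE on DOX in shCTRL and 0 in RPFs of uninduced shEIF2B4. Leaving out the lowest 25% of genes gave 2 in TE after shEIF2B1 and 1 in RPFs of uninduced shEIF2B4, and dropping the variance trend gave 1 in total RNA of uninduced shEIF2B1. Other counts stayed within 1.5 times their value, and the cause of these changes was not tested. Depth behind single values is unknown.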
